A study of Mus musculus with 8 samples.

Results

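The transcripts described here encode the enzymes, transporters and regulators of hepatic glucose metabolism: the 4 Pfkfb isoforms, glucose entry, glycolysis, the pyruvate dehydrogenase kinases, gluconeogenesis, glycogen and fructose. They were taken by a list of symbols, drawn up with earlier results of these data known, and they are 42 of the 55487 genes counted. All 42 were found in the tables and all passed the filter on low counts, with the lowest count of any of them in any mouse at 7. The RNA came from the livers of male mice that were homozygous for a floxed Mc1r allele. Mc1r LKO mice (n = 4) also carried the Alb-Cre transgene, which is driven by the albumin promoter and deletes Mc1r, the receptor for melanocortin peptides, in hepatocytes. The Control mice (n = 4) were Mc1r fl/fl animals of matched age. The deletion is aimed at hepatocytes, and whether the other cells of the liver kept an intact receptor gene was not measured. Both groups were fed a cholesterol-rich Western diet for 12 weeks from 8 weeks of age and were fasted for 4 hours before the tissue was taken. The comparison asks which hepatic transcripts differ when hepatocytes lack the receptor. Each mouse is 1 library, and values are given below in the order 154, 159, 181 and 193 for Control and 141, 156, 157 and 182 for Mc1r LKO.

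The liver takes up glucose after a meal, stores it as glycogen or burns it through glycolysis, and in fasting releases glucose made from glycogen or from lactate, alanine and glycerol. Glycolysis and gluconeogenesis share most of their enzymes and differ at 3 steps, at which separate enzymes work in opposite directions. One of these steps, between fructose 6-phosphate and fructose 1,6-bisphosphate, is set by the signal molecule fructose 2,6-bisphosphate, which activates phosphofructokinase and inhibits fructose bisphosphatase. The Pfkfb enzymes make and remove that signal, since each carries a kinase and a phosphatase on 1 protein. Pfkfb1 is the classical liver isoform, Pfkfb2 the heart isoform, Pfkfb3 the inducible isoform with a strong kinase, and Pfkfb4 the testis isoform.

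The isoforms are close relatives, so that the sequences show how far a read can tell them apart. Over the longest coding sequence of each isoform (GRCm38 transcripts), pairs of isoforms were identical at 64.7% to 70.8% of aligned bases, the lowest for Pfkfb2 with Pfkfb3 and the highest for Pfkfb1 with Pfkfb4. The most conserved stretch of 60 bases lies near the start of the coding sequence, beginning at base 128 in Pfkfb3, and is printed because it is the part that a read could most easily confuse. Capitals mark bases that differ from Pfkfb3.
Pfkfb1: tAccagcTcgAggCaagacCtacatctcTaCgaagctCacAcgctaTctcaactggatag
Pfkfb2: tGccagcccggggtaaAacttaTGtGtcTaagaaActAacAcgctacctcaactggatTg
Pfkfb3: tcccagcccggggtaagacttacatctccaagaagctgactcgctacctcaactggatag
Pfkfb4: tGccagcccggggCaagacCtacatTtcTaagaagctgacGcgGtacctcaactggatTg
Within this stretch 43 of 60 bases were the same in all 4 isoforms, while Pfkfb1 and Pfkfb2 each differed from Pfkfb3 at 10 bases and Pfkfb4 at 8. No 75-base word of Pfkfb3 occurred in a transcript of another gene. For Pfkfb2 such words made up 22% of all words, and 17.4% of its exon bases overlap the predicted gene Gm29427 on the same strand, so that the level of Pfkfb2 is less certain.

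On GRCm38, Pfkfb1 lies on chromosome X (150588229 to 150643878), Pfkfb2 on chromosome 1 (130689182 to 130729253) and Pfkfb4 on chromosome 9 (108991778 to 109032228). Pfkfb3 (ENSMUSG00000026773) lies on the minus strand of chromosome 2, from 11471433 to 11554077. The sequence before 2 annotated starts of Pfkfb3 (RefSeq, GRCm38.p6), without bases that belong to its exons, is printed because Pfkfb3 is the member with the smallest p-value. Capitals mark CACGTG, the E-box bound by helix-loop-helix factors such as the carbohydrate response and clock factors.
Pfkfb3 upstream window, chr2:11502102-11502340, minus strand: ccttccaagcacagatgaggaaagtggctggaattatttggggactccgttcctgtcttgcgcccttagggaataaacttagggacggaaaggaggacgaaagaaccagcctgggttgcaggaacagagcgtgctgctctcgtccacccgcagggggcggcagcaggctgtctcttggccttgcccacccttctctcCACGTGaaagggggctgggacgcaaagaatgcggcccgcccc
Pfkfb3 upstream window, chr2:11554078-11554179, minus strand: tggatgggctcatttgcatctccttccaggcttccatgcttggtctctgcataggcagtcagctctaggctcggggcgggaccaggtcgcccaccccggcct
CACGTG was found once, in the first window. The members had 63 RefSeq promoter entries, for 40 of the 42 genes, and over 250 bases before the start CACGTG was found in 9 of the 63 (14.3%), beside 6.02% of all 32851 RefSeq promoters. Those 9 belong to 9 genes (G6pc3, Khk, Ldha, Pcx, Pdk2, Pfkfb2, Pfkfb3, Pfkm and Ppp1r3c). The core ACGTG, which lies inside CACGTG on both strands, was found in 23 of the 63 (36.5%) and in 16.6% of all promoters. The cAMP response element TGACGTCA was found in 1 of the 63 and in 1.55% of all promoters. A palindromic glucocorticoid receptor element was found in 0 of the 63 and in 0.387% of all promoters. Both strands were searched, Gys2 and Ppp1r3b had no promoter entry, and a match of letters is a description and not a binding site.

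Of the 42 genes, 2 differed between the genotypes by edgeR's quasi-likelihood test, where a gene was called if its unadjusted p was under 0.05 and its log2 fold change was 0.25 or more in size. Both were Pfkfb isoforms, Pfkfb3 and Pfkfb2, and both were higher in Mc1r LKO mice. This share, 4.76%, is close to that of all 13400 genes tested, 5.31%, of which 2.64% were higher and 2.66% lower. With Benjamini-Hochberg adjustment over all genes, edgeR called 0 members (background 0.0%), limma-voom called 0, and DESeq2 called 1, Pfkfb3, beside 0.201% of the 8458 genes to which it gave an adjusted p. At the unadjusted p DESeq2 called 4 members (background 5.55%) and limma-voom 1 (background 5.2%). The median log2 fold change of the 42 genes was 0.02, beside -0.01 over all genes tested, with 25 above 0 and 17 below. Scaled by total count alone instead of TMM, 18 were above 0 and 24 below, and the share of all called genes that were higher moved from 49.8% to 25.3%. The standard error of a log2 fold change was between 0.08 and 0.64 (median 0.15). The 95% confidence interval lay within a 1.5-fold change in either direction for 28 of the 42 genes and within a 2-fold change for 31, and the plot of fold changes shows which intervals were wide.

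**Figure D1:**
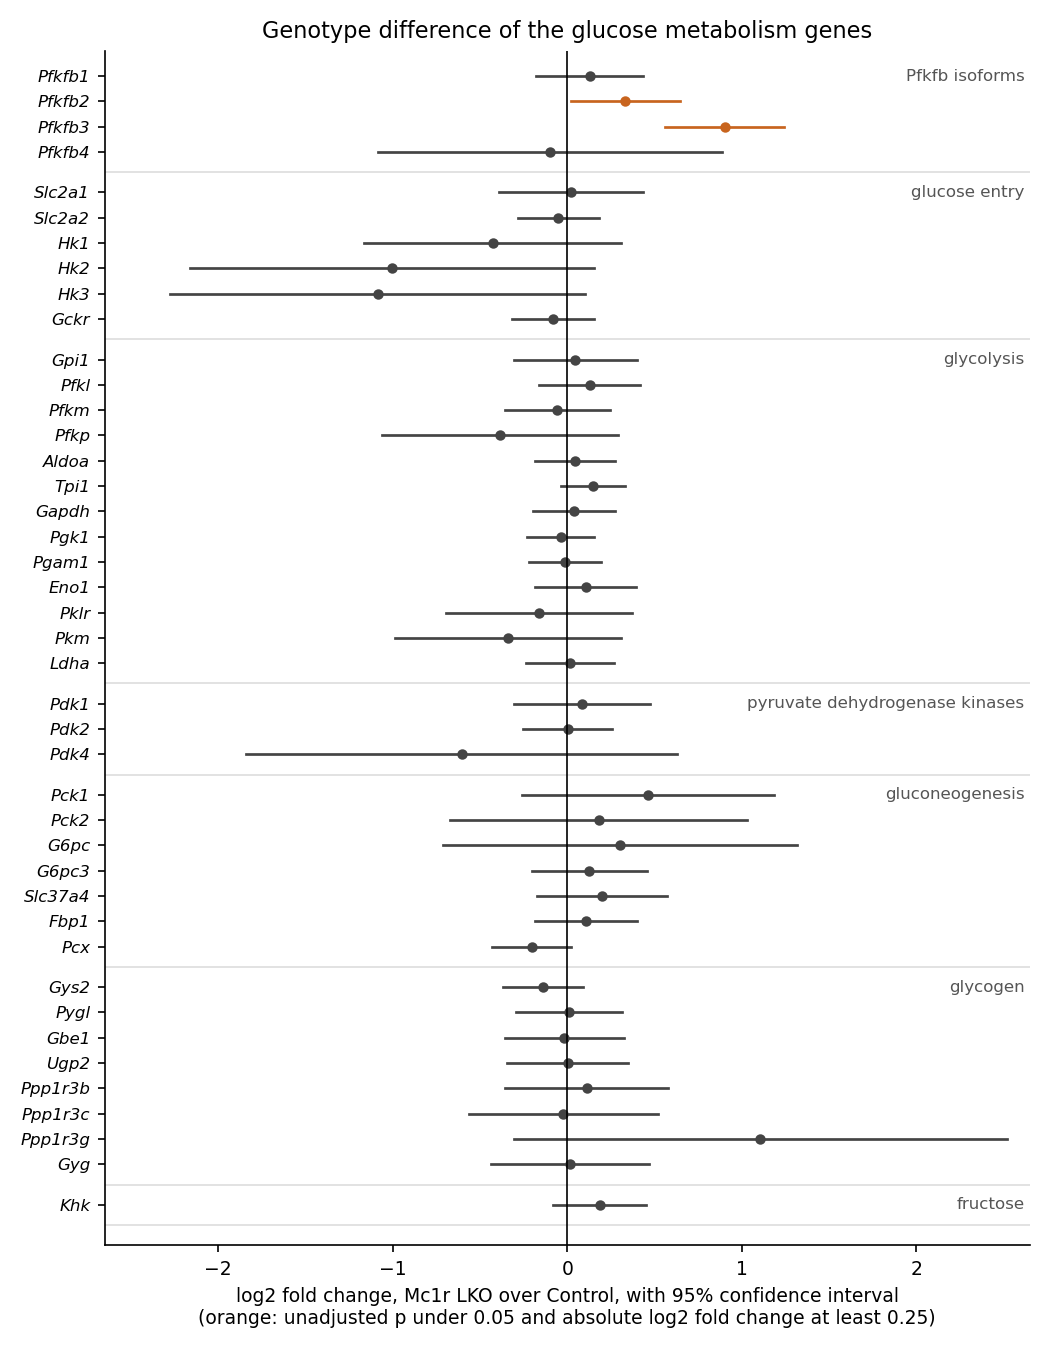
Each gene's log2 fold change, Mc1r LKO over Control, is plotted on the horizontal axis as a point with its 95% confidence interval as a line, with the genes in rows by metabolic step and n = 4 mice per genotype. Pfkfb2 at 0.33 and Pfkfb3 at 0.90 are the 2 orange points past the unadjusted threshold, and the widest intervals belong to Ppp1r3g, Pdk4, Hk3 and Hk2.

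Pfkfb3 was the gene of the 42 with the clearest genotype difference. Levels are given in CPM, read counts scaled to a common library size with TMM. Pfkfb3 stood at 11.6, 10.3, 10.1 and 13.3 CPM in Control mice and at 27.0, 21.2, 19.3 and 17.5 CPM in Mc1r LKO mice. Every Mc1r LKO mouse was above every Control mouse, and it was the 1 member without overlap. Over all genes tested 4.16% did not overlap, 2.63% in this direction and 1.54% in the other. The log2 fold change was 0.90 (SE 0.15, 95% interval 0.56 to 1.24, unadjusted p = 1.42e-04, adjusted p = 0.579), and it was called at the unadjusted p in 8 of 8 fits that each left out 1 mouse. The study had itself selected Pfkfb3 from these libraries. By qPCR over all its Western diet livers of both genotypes, the study reported Pfkfb3 as significantly higher in Mc1r LKO mice.

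Pfkfb2 stood at 9.94, 7.72, 9.28 and 9.83 CPM in Control mice and at 13.1, 10.8, 9.94 and 12.7 CPM in Mc1r LKO mice. The genotypes met at 9.94 CPM, the value of the highest Control and the lowest Mc1r LKO mouse. The log2 fold change was 0.33 (SE 0.14, unadjusted p = 0.039, adjusted p = 0.734), and the call was lost with limma-voom, with scaling by total count alone, and without mouse 159, 181, 141 or 182.

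The other isoforms did not pass the test. Pfkfb1 stood at 44.6, 57.7, 55.2 and 42.5 CPM in Control and at 53.7, 66.9, 51.6 and 46.3 CPM in Mc1r LKO mice. The groups overlapped between 46.3 and 57.7 CPM (log2 fold change 0.13, 95% interval -0.18 to 0.44). Pfkfb4 was near the limit of what these libraries resolve, at 1.12, 0.651, 0.625 and 2.04 CPM in Control and at 1.11, 1.43, 1.13 and 0.613 CPM in Mc1r LKO mice. The highest value was in Control mouse 193 and the lowest in Mc1r LKO mouse 182, and the 95% interval of -1.08 to 0.89 was too wide to place its change.

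**Figure D2:**
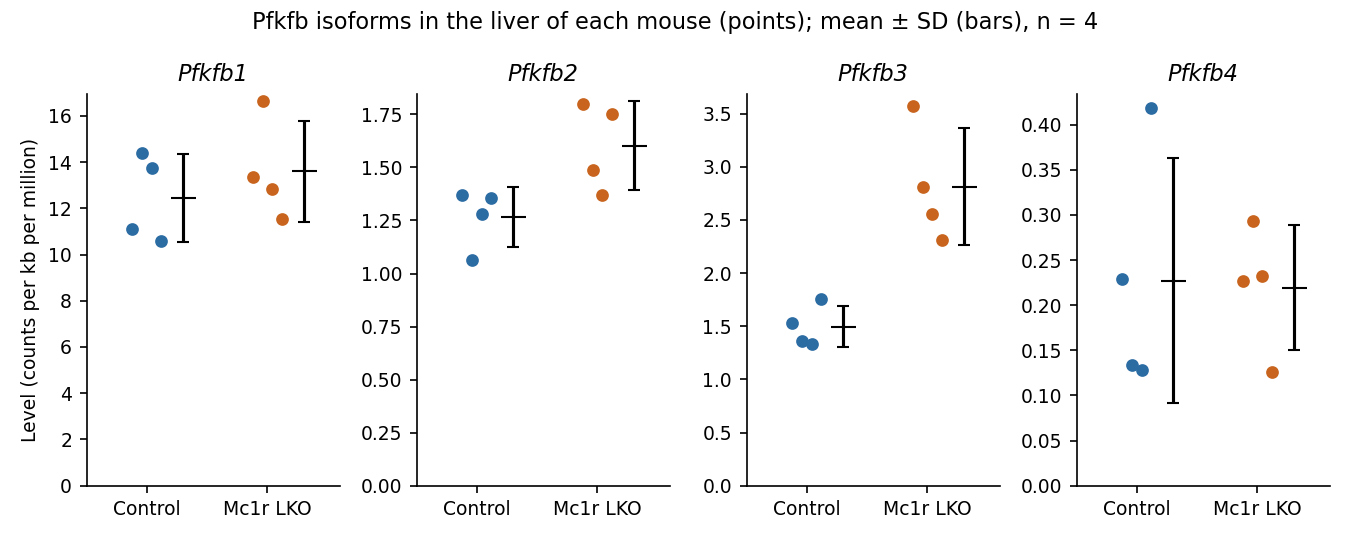
Each point is the level of an isoform in 1 mouse, in RPKM (CPM per kilobase of exon), with Control in blue and Mc1r LKO in orange, and black bars give the mean and SD of 4 mice. The scales differ between panels, and only in the Pfkfb3 panel do all Mc1r LKO mice (2.31 to 3.58) lie above all Control mice (1.33 to 1.76).

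Per length of exon, Pfkfb1 was the most abundant isoform in every mouse, with 80.3% ± 4.63 of the summed Pfkfb level in Control and 74.4% ± 3.36 in Mc1r LKO mice (SD, n = 4). The share of Pfkfb3 was between 8.06% and 12.5% in Control and between 13.2% and 18.8% in Mc1r LKO mice, without overlap. Pfkfb2 held 8.32% ± 1.62 and 8.93% ± 1.81 of the sum, and Pfkfb4 1.54% ± 1.03 and 1.19% ± 0.27 (SD, n = 4). Shares sum to the whole, so that they are not independent of each other. In log2 ratios within a mouse, which need no scaling between libraries, Pfkfb3 to Pfkfb1 differed between the genotypes by 0.77 and Pfkfb3 to Pfkfb2 by 0.56 (each p = 0.0286, adjusted p = 0.129, two-sided exact permutation test). That p is the smallest that 4 mice against 4 allow, and the adjustment is over the 9 ratios computed. The ratios come from the same libraries as the fold change of Pfkfb3 and are not independent of it. Of the other 7 ratios none reached this p. The difference was 0.84 for Pfkfb3 to Pfkfb4 (exact permutation p = 0.114), 0.21 for Pfkfb2 to Pfkfb1 (exact permutation p = 0.4) and 0.03 for Pfkl, a liver phosphofructokinase, to Fbp1, the opposing fructose bisphosphatase, whose ranges overlapped almost wholly.

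Among the genes of glucose entry no genotype difference passed the test, and 5 of 6 log2 fold changes were below 0 (median -0.25). Slc2a2, the main glucose transporter of hepatocytes, stood at 342, 304, 389 and 389 CPM in Control and at 377, 336, 327 and 334 CPM in Mc1r LKO mice, with the Mc1r LKO range inside the Control range. Its log2 fold change was -0.05 (95% interval -0.28 to 0.18). Gckr, the nuclear inhibitor of the liver's glucose-phosphorylating enzyme, stood at 249, 235, 287 and 221 CPM and at 231, 252, 208 and 247 CPM. These also overlapped (log2 fold change -0.08, 95% interval -0.32 to 0.16). Slc2a1, a widely expressed transporter, had a log2 fold change of 0.02 (95% interval -0.39 to 0.43).

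The hexokinases Hk1, Hk2 and Hk3, which phosphorylate glucose in most cells other than hepatocytes, were low and varied widely from mouse to mouse. Hk2 stood at 4.20, 7.44, 1.35 and 4.24 CPM in Control and at 2.83, 3.12, 1.90 and 0.715 CPM in Mc1r LKO mice. Mouse 159 was highest and mouse 182 lowest, and the value of the Control mouse 181 lay below 3 of the 4 Mc1r LKO mice. Hk2 had a log2 fold change of -1.0 (SE 0.52, unadjusted p = 0.083, adjusted p = 0.775), which lay between -1.30 and -0.62 when each mouse was left out, the latter without mouse 159. Hk3, which was chosen for its values after they were seen, stood at 4.20, 21.0, 3.75 and 7.09 CPM in Control and at 3.66, 6.24, 4.40 and 2.35 CPM in Mc1r LKO mice. Its log2 fold change of -1.09 (unadjusted p = 0.070) was -0.27 without mouse 159. Hk1 stood at 3.99, 5.86, 3.70 and 5.71 CPM and at 5.25, 3.44, 4.04 and 1.58 CPM, with the groups overlapping (log2 fold change -0.43, unadjusted p = 0.224). Without mouse 182 the value of Hk1 was -0.17, and without mouse 141 it was -0.66.

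The summed level of the Kupffer cell and macrophage markers had its extremes in the same mice. Of 7 such markers 7 had a log2 fold change below 0 and 1, Csf1r, was called lower, none of the 7 was at 0, and their summed level was 306 to 699.5 CPM in Control and 210.4 to 459 CPM in Mc1r LKO mice. The sum was highest in mouse 159 and lowest in mouse 182, as was each marker but Lyz2, which was highest in mouse 193. This was not particular to macrophages. Summed sinusoidal endothelial (108.2 CPM) and stellate cell markers (191.6 CPM) were also lowest in mouse 182, though not highest in mouse 159. Each endothelial marker was lowest in mouse 182, but of the stellate markers Reln was lowest in mouse 159 and Des in mouse 181. Dcn, the largest part of the stellate sum, was nearly tied in mice 182 and 181 (123.8 and 124.3 CPM). The sum of other leukocyte markers was highest in mouse 159 (28.1 CPM) but not lowest in mouse 182. Ptprc was its largest part, and Cd79a, Ms4a1 and S100a9 were highest in other mice. For cholangiocyte and red blood cell markers neither mouse was an extreme. The sum of hepatocyte markers was highest in mouse 182 (1.05e+05 CPM) and lowest in mouse 154 (7.26e+04 CPM). The part of any of these cell types in the hexokinase values was not tested, and in whole liver fewer cells of a type and less RNA per cell cannot be told apart. Of 8 hepatocyte markers 8 were above 0 and 1, Tat, was called higher. For Tat the highest mouse had 3.74 times the lowest. Over all genes tested 47.9% were above 0, 2.64% were called higher and 2.66% were called lower. Of 4 skeletal muscle markers, Acta1 and Myh4 had 0 counts in every mouse, and the list summed to at most 1.33 CPM, nearly all of it Mylpf. Of 4 exocrine pancreas markers, Cpa1, Pnlip and Prss2 had 0 counts in every mouse, while Cela1 was at 8.77 to 14.5 CPM. Of 4 adipocyte markers, Lep had 0 counts in every mouse, Adipoq and Plin1 were at most 0.353 CPM, and Cfd was at 7.47 to 39.4 CPM.

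**Figure D3:**
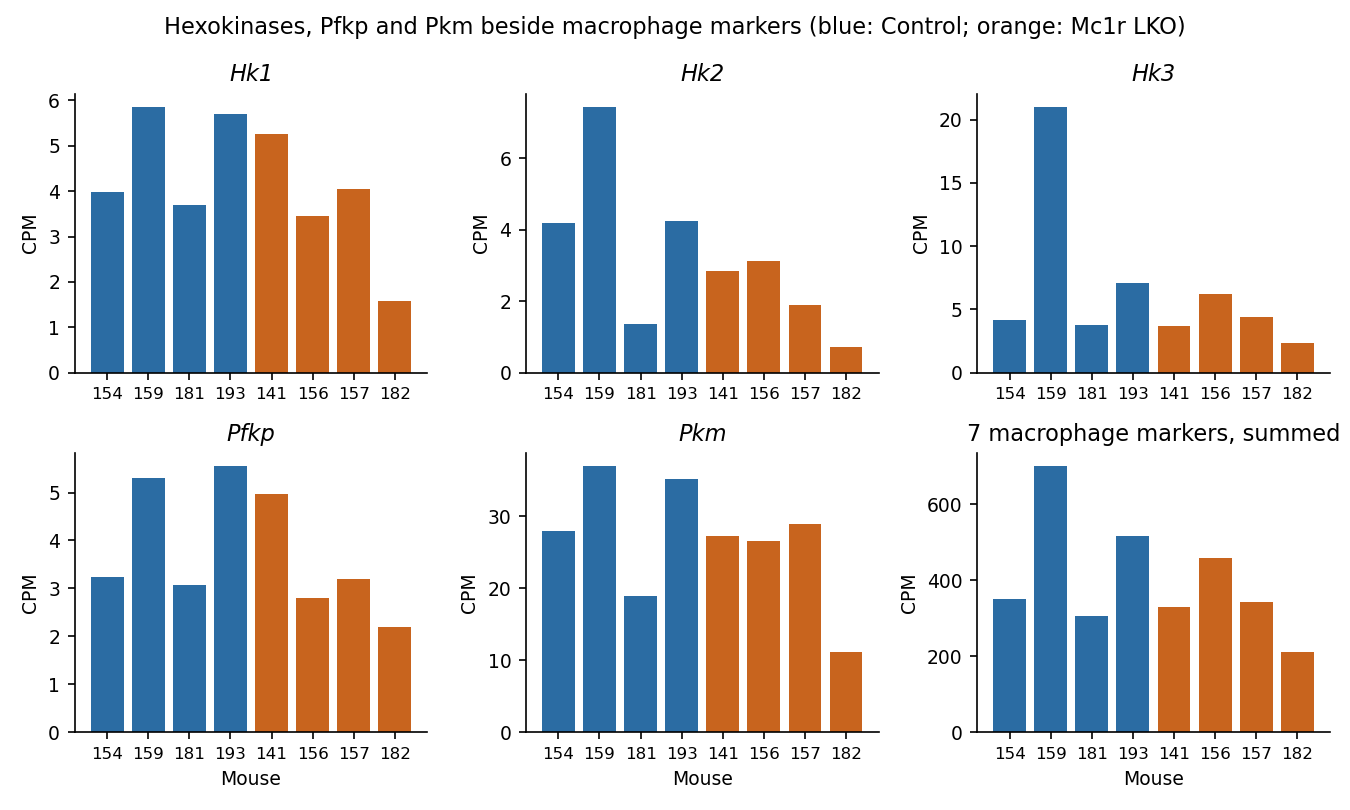
Bars give the CPM of 5 glycolytic genes and the summed CPM of 7 macrophage markers in each mouse, with Control in blue and Mc1r LKO in orange. Mouse 182 has the lowest bar in all 6 panels, and mouse 159 has the highest in all but that of Pfkp, in which mouse 193 is highest.

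The 13 glycolytic genes had a median log2 fold change of 0.02, with 7 above 0, 6 below and none called, and a range from -0.39 (Pfkp) to 0.15 (Tpi1). Ldha, lactate dehydrogenase A, stood at 874, 957, 913 and 841 CPM in Control and at 838, 820.05, 869 and 1103 CPM in Mc1r LKO mice, the range of the first inside that of the second. Gapdh stood at 1132, 1041, 988 and 1006 CPM and at 1107, 1188, 1083 and 900.2 CPM, again with overlap. The 95% intervals were -0.23 to 0.27 for Ldha and -0.20 to 0.27 for Gapdh. Tpi1, triose phosphate isomerase, had the smallest p of the group, with a log2 fold change of 0.15 (SE 0.08, unadjusted p = 0.106).

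Phosphofructokinase, the enzyme on which the product of the Pfkfb enzymes acts, has 3 isoforms. Pfkl, the liver form, had a log2 fold change of 0.13 (95% interval -0.16 to 0.42). Pfkm, the muscle form, stood at 20.2, 17.2, 15.6 and 16.8 CPM in Control and at 19.7, 16.6, 17.6 and 13.3 CPM in Mc1r LKO mice, and Pfkp, the platelet form, at 3.24, 5.30, 3.07 and 5.54 CPM and at 4.98, 2.79, 3.19 and 2.20 CPM. Both overlapped between the genotypes, and their log2 fold changes were -0.06 and -0.39. That of Pfkp was -0.64 without mouse 141, -0.22 without mouse 193 and -0.23 without mouse 182. In a like pair, Pklr, the pyruvate kinase of liver, had a log2 fold change of -0.16 (95% interval -0.70 to 0.37) and Pkm, that of most other cells, -0.34 (95% interval -0.99 to 0.31). Pkm was lowest in mouse 182, as the hexokinases were, and its log2 fold change was -0.10 without that mouse and -0.22 without mouse 159. The log2 fold changes of Gpi1, Aldoa, Pgk1, Pgam1 and Eno1, which catalyse the reversible steps, lay between -0.04 and 0.11. Their levels, and that of Gapdh, are less certain where the sequence is shared with other genes, since words of 75 bases found elsewhere made up 67.5% of Pgk1, 55.5% of Gapdh, 44.3% of Eno1 and 40.6% of Pgam1.

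The pyruvate dehydrogenase kinases hold back the entry of pyruvate into the citric acid cycle. Pdk1 stood at 156, 106, 132 and 98.7 CPM in Control and at 132, 139, 155 and 95.7 CPM in Mc1r LKO mice. Pdk2 stood at 103, 121, 109.6 and 121 CPM and at 109, 134, 118 and 94.4 CPM. The genotypes overlapped for both, with log2 fold changes of 0.09 and 0.00. Pdk4, which is induced in fasting, stood at 74.2, 17.8, 23.9 and 14.7 CPM in Control and at 10.6, 27.4, 36.7 and 10.9 CPM in Mc1r LKO mice. Its log2 fold change of -0.61 (unadjusted p = 0.301) rested on mouse 154 and was 0.20 without it, -0.38 without mouse 141 or mouse 182 and -1.0 without mouse 157.

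Among the 7 genes of gluconeogenesis 6 log2 fold changes were above 0 (median 0.18), none was called, and over all genes tested 47.9% were above 0. Fbp1, fructose bisphosphatase, stood at 1011, 754, 1106 and 923 CPM in Control and at 1157, 976, 907 and 1042 CPM in Mc1r LKO mice, with overlap (log2 fold change 0.11, 95% interval -0.19 to 0.40). Pck1, the cytosolic phosphoenolpyruvate carboxykinase, stood at 688, 1048, 1273 and 1856 CPM in Control and at 2447, 1372, 976 and 1920.2 CPM in Mc1r LKO mice. The highest mouse had 3.56 times the lowest, and the groups overlapped between 976 and 1856 CPM. Pck1 had a log2 fold change of 0.46 (SE 0.32, unadjusted p = 0.182), which was 0.75 without mouse 193 (unadjusted p = 0.040), 0.23 without mouse 141 and 0.28 without mouse 154. In log2 ratio to Pck1, Pklr differed between the genotypes by -0.62 (exact permutation p = 0.4).

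G6pc, the catalytic subunit of liver glucose 6-phosphatase, was named after its values were seen. It stood at 242, 60.3, 301 and 296 CPM in Control and at 234, 174, 215 and 488 CPM in Mc1r LKO mice, with mouse 159 lowest and mouse 182 highest. For G6pc the log2 fold change was 0.30 (SE 0.46), and it was -0.000334 without mouse 159 and -0.11 without mouse 182, with values of 0.47 to 0.48 without mouse 181, 193 or 156. Slc37a4, which carries glucose 6-phosphate to that enzyme, had 0.20 (unadjusted p = 0.259). G6pc3, the widely expressed glucose 6-phosphatase, stood at 7.71, 7.07, 6.04 and 6.03 CPM and at 6.91, 8.19, 6.87 and 7.31 CPM, and Pck2, the mitochondrial carboxykinase, at 3.40, 5.95, 3.54 and 5.30 CPM and at 8.37, 5.20, 5.17 and 1.89 CPM. Both overlapped. Pcx, pyruvate carboxylase, was the gene below 0, with a log2 fold change of -0.20 (SE 0.10, unadjusted p = 0.073).

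For glycogen, the enzymes of synthesis and breakdown lay close to 0. Gys2, the liver glycogen synthase, had a log2 fold change of -0.14 (95% interval -0.37 to 0.09), and Gbe1, the branching enzyme, -0.02 (95% interval -0.36 to 0.32). Ugp2, which makes UDP-glucose, stood at 723, 436, 729.5 and 576 CPM in Control and at 653, 559, 639 and 617 CPM in Mc1r LKO mice. Pygl, the liver glycogen phosphorylase, stood at 688, 496, 748 and 575 CPM and at 579, 586, 663 and 698 CPM. For both, the Mc1r LKO range lay inside the Control range, with mouse 159 lowest of all. In log2 ratio, Gys2 to Pygl differed between the genotypes by -0.16 (exact permutation p = 0.371). Gyg, glycogenin, stood at 8.83, 7.90, 6.98 and 8.81 CPM and at 8.43, 10.1, 9.17 and 5.21 CPM, with overlap.

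The subunits that bring protein phosphatase 1 to glycogen differed from each other in their spread. Ppp1r3b, the hepatic subunit, and Ppp1r3c had log2 fold changes of 0.11 and -0.02. Ppp1r3g stood at 10.1, 6.23, 7.50 and 4.40 CPM in Control and at 19.3, 31.0, 9.33 and 1.69 CPM in Mc1r LKO mice, so that the knockout group held both the 2 highest values and the lowest. The highest mouse had 18.4 times the lowest, the widest span of the 42 genes. Its log2 fold change of 1.11 (SE 0.64, unadjusted p = 0.112) became 1.49 without mouse 182 (unadjusted p = 0.00248) and 0.50 without mouse 156 (unadjusted p = 0.43). Khk, ketohexokinase, which traps fructose, stood at 872, 682, 864 and 639 CPM in Control and at 876, 911, 874 and 818 CPM in Mc1r LKO mice. Only mouse 182 of the knockout group lay inside the Control range, and the log2 fold change was 0.19 (SE 0.12, unadjusted p = 0.150).

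**Figure D4:**
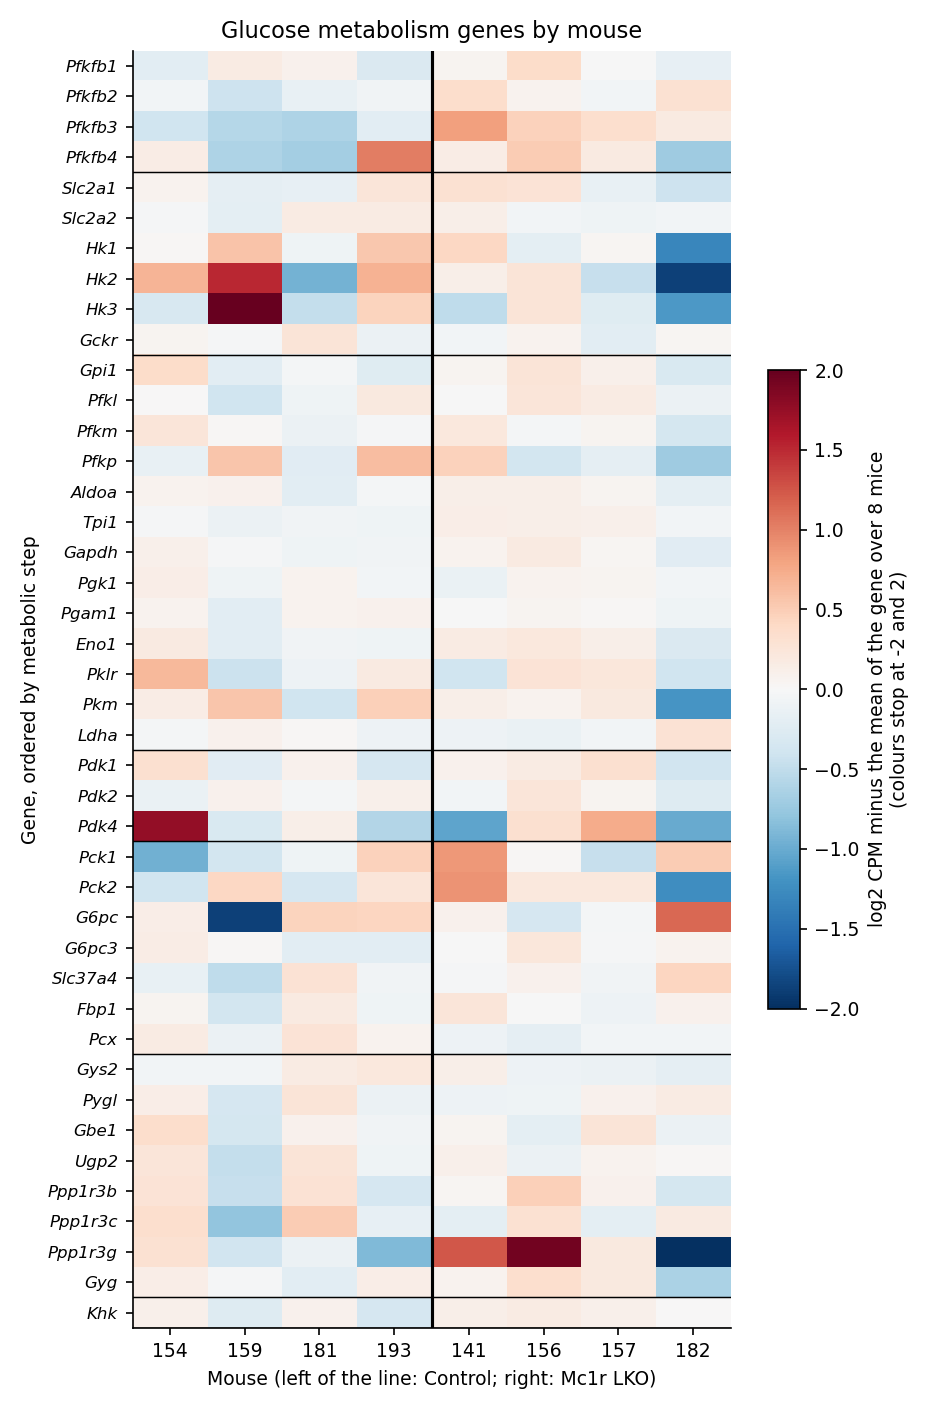
Colour gives the log2 CPM of each gene in each mouse minus the mean of the gene over 8 mice, with red above and blue below, genes in rows by metabolic step and Control mice left of the vertical line. Only the Pfkfb3 row is blue in all Control mice and red in all Mc1r LKO mice, and mice 159 and 182 carry many of the strongest colours.

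The extreme values fell mostly on a few mice. Mouse 182 was the lowest of 8 in 17 of the 42 genes and mouse 159 in 14, while mouse 156 was the highest in 10. The highest mouse was under 1.5 times the lowest in 14 genes and over 3 times the lowest in 10. Total counts were 10773151 to 23161380 per mouse in Control and 14196138 to 24763375 in Mc1r LKO, with mouse 159 the smallest library, and the TMM factors lay between 0.911 (mouse 182) and 1.06. Mc1r itself had 0 counts in every library, which allows up to 3 counts (0.121 to 0.278 CPM, counting error only), so the genotype labels could not be checked against it.

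Levels per length of exon covered more than 3 orders of magnitude and put the enzymes of gluconeogenesis and fructose use at the top. Over the 8 mice Fbp1 averaged 578 RPKM (CPM per kilobase of exon), Khk 455, Pck1 422, Ldha 272 and Gapdh 255. The ranges of neighbours at the top overlapped, since Fbp1 spanned 443 to 680 RPKM, Khk 356 to 507 RPKM and Pck1 201 to 714 RPKM. Within a mouse, Fbp1 was above Khk every time, while the order of Khk and Pck1 changed from mouse to mouse. The lowest were Pfkfb4 at 0.223, Pfkp at 0.283, Hk1 at 0.492, Hk2 at 0.540 and Pck2 at 0.622 RPKM, whose ranges overlapped from one to the next. Among these, Hk1 was above Pfkp in every mouse. Of the 42 genes, 10 averaged above 100 RPKM and 5 below 1 RPKM. Within families the hepatic form led: Pklr at 166 RPKM against Pkm at 5.32, and Pfkfb1 at 13.0 against Pfkfb3 at 2.15. The phosphofructokinases Pfkl at 5.89 and Pfkm at 5.13 RPKM overlapped in range, and their order changed from mouse to mouse.

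**Figure D5:**
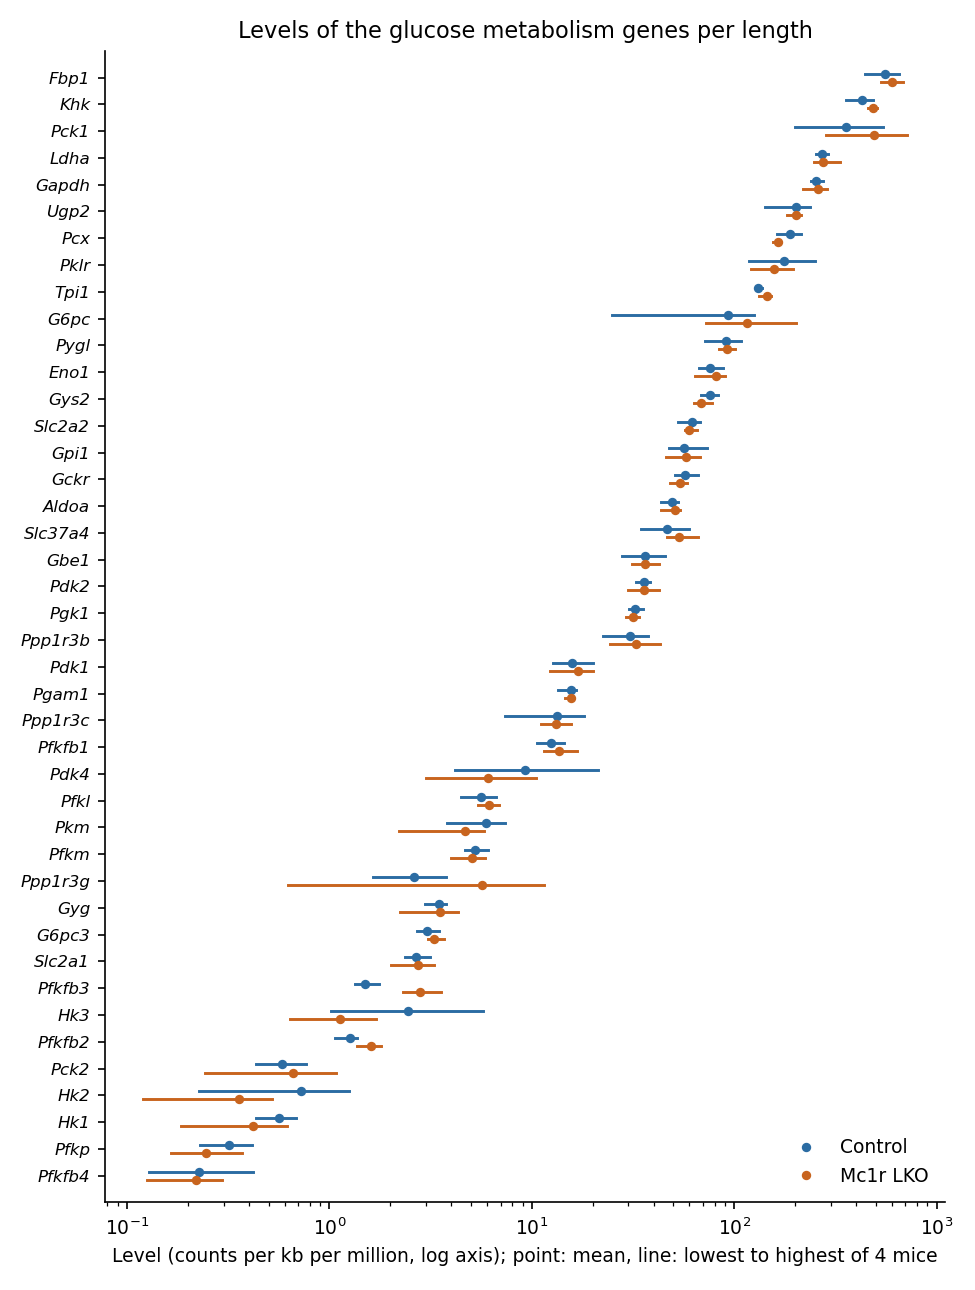
Points give the mean level of each gene in RPKM on a log axis, and lines run from the lowest to the highest of the 4 mice, with Control in blue and Mc1r LKO in orange. Fbp1, Khk and Pck1 are at the top and Pfkfb4 at the bottom, and Pfkfb3 is the row in which the blue and orange lines do not meet.

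Beyond the 42 genes, 78 other genes of the same pathways were listed, of which 70 were tested and 4 were called at the unadjusted p, 5.71%, again close to the 5.31% of all genes. At the adjusted p edgeR called 0 of the 70, as did DESeq2 and limma-voom, which called 3 and 4 at the unadjusted p. Both genes called higher are among the 18 other glycogen genes tested, while of the 8 glycogen genes of the 42 none was called or without overlap. They were also the 2 of the 70 without overlap. Over all genes tested 2.64% were called higher and 2.63% did not overlap in this direction. Stbd1, which anchors glycogen to membranes, stood at 91.3, 71.4, 80.0 and 104 CPM in Control and at 134, 106, 108 and 107 CPM in Mc1r LKO mice, with no overlap (log2 fold change 0.39, SE 0.13, unadjusted p = 0.013, adjusted p = 0.734). Ppp1r3e, another glycogen-targeting subunit of protein phosphatase 1, stood at 0.532, 1.77, 2.24 and 2.28 CPM and at 4.77, 3.57, 2.83 and 3.22 CPM, also with no overlap (log2 fold change 1.06, SE 0.39, unadjusted p = 0.021, adjusted p = 0.734). The Stbd1 call held without each mouse in turn, and that of Ppp1r3e was lost without mouse 141. Ppp1r3e rests on few counts. Its log2 fold change was 0.76 without mouse 154, and DESeq2 gave it no adjusted p.

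Of the genes called lower, Adpgk, a glucose kinase that uses ADP, stood at 18.3, 25.0, 21.7 and 22.0 CPM in Control and at 16.9, 20.9, 16.6 and 17.4 CPM in Mc1r LKO mice (log2 fold change -0.27, unadjusted p = 0.045). Pdp2, a phosphatase that reactivates pyruvate dehydrogenase, stood at 36.0, 36.5, 44.1 and 40.2 CPM and at 28.3, 29.4, 35.0 and 37.5 CPM (log2 fold change -0.27, unadjusted p = 0.041). Each overlapped between the genotypes and lost its call when 1 of several mice was left out. None of the genes of the pentose phosphate pathway (8 tested), fructose and polyol use (5) or galactose use (4) was called. Nor was any of the 4 genes listed for the glucose-responsive factor ChREBP, namely Mlxipl, Mlx, Txnip and Arrdc4. Its lipogenic targets were not in that list. Mlxipl, which encodes ChREBP, had a log2 fold change of -0.20 (unadjusted p = 0.318). By qPCR in a larger set of livers, the study reported this transcript as significantly higher in Mc1r LKO mice.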

How the data were processed

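RNA sequencing measured liver transcripts of 4 Control and 4 Mc1r LKO mice, grouped by the sample titles. The authors trimmed the reads (Trim Galore 0.6.6), aligned them (STAR 2.7.6a) and counted them on genes by strand (featureCounts of Subread 2.0.1, strand option 2), per the submitters' processing notes and the table headers, and deposited raw counts per gene, with no normalization or filter. The headers name GRCm38 with Ensembl release 102. No batch is named. No pair of mice of a genotype agreed within sampling noise (lowest chi-square per degree of freedom 11.0), and although littermates were caged together, which of these 8 mice shared a litter or a cage is not stated.

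From the deposited counts, filterByExpr (by group, minimum count 10, minimum total 15) kept 13400 genes. These were scaled by TMM and compared, two-sided, with glmQLFit and glmQLFTest of edgeR 4.0.16 under R 4.3.3, and p-values were adjusted over all of them by Benjamini-Hochberg. The method of the study names the filter and the normalization. CPM are TMM-normalized, and levels per length divide CPM by the merged exon length in kilobases. Ratios within a mouse were tested with the exact permutation test of SciPy 1.17.1, for which 4 mice against 4 allow no p below 0.0286. Isoform sequences were aligned with MAFFT 7.526. The fit was tested on simulated data.

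The pathway and marker lists, like the 42 genes, were chosen with earlier results of these data known. Values in every mouse are given for the Pfkfb isoforms, for genes called at the unadjusted p or without overlap, and for the 2 highest and 2 lowest genes per length of each step. Outside the 42, genes of the pathway lists called at the unadjusted p are named. Others were named after their values were seen (Hk3, Pkm, Pcx, G6pc, Pgam1, Tpi1, and those given with a fold change only). Alternatives were DESeq2 1.42.0, limma-voom (limma 3.58.1), RLE factors, scaling by total count, other count filters, dropping the fold limit and leaving out every mouse in turn. Some genes of glucose metabolism are not reported here.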

Additional observations from a re-analysis of the deposited data

Results flagged for a closer look

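In 84 groups of 4 mice (42 genes, 2 genotypes), 3 had a mouse whose distance from the nearest of the others exceeded Dixon's 95% critical value as a share of the group's range, where chance alone gives about 4.2. Pgam1, phosphoglycerate mutase, stood at 26.6 CPM in the Control mouse 159 and at 32.3 to 32.8 CPM in the other Control mice. Pkm stood at 11.1 CPM in the Mc1r LKO mouse 182 and at 26.5 to 28.9 CPM in the others. Pdk4 stood at 74.2 CPM in the Control mouse 154 and at 14.7 to 23.9 CPM in the others.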

How the results depend on the processing

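Of the 42 genes, 2 were called at the unadjusted p, and the count was 4 with DESeq2 (adding Hk2 and Hk3, background 5.55%), 1 with limma-voom (Pfkfb3, background 5.2%), 1 with scaling by total count alone (Pfkfb3, background 4.99%) and 5 with no filter beyond 1 count in any mouse (adding Hk2, Hk3 and Ppp1r3g, background 4.73%). Leaving out 1 mouse gave 1 to 4 (background 4.45% to 6.81%), with Pfkfb3 in each: without mouse 154 Hk3 was added, without 159 Pcx, without 181 Hk2, Hk3 and Slc37a4, without 193 Pck1 and without 182 Ppp1r3g. At the adjusted p the count of 0 became 1 with DESeq2 (Pfkfb3). Over the other tools, normalizations and filters the adjusted p of Pfkfb3 lay between 7.04e-04 and 0.82. As a difference of medians, the log2 ratio of Pfkfb3 to Pfkfb1 was 0.79 and that of Pfkfb3 to Pfkfb2 was 0.65, each with an exact permutation p of 0.0571. The cause of these changes was not tested.

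Over 587 gene values under alternatives, 569 kept their side of the threshold, 12 gained and 6 lost a call, and 65 changed sign without being called in either fit (22 genes, absolute log2 fold change up to 0.61). No called value reversed, and 1 could not be fitted. No paired analysis was possible because the mouse numbers are not shared between the genotypes. Genes under 1 RPKM rest on few counts and had wide intervals, but so did Ppp1r3g, Pdk4 and Hk3 at higher levels. The part of low counts in the width was not tested. Leaving out a mouse leaves 3 against 4, where an exact test allows no p below 0.0571, so that the ratios without a mouse are values without a test.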
